A study of Mus musculus with 35 samples.

Results

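The regions described here are stretches of mouse chromatin that carried acetylation of histone H3 at lysine 27 (H3K27ac) at day 3 and day 9 of reprogramming and in neither the starting fibroblasts nor embryonic stem cells. All peaks of the 12 H3K27ac libraries on chromosomes 1 to 19 and X were merged wherever they shared at least 1 bp, which gave 179334 regions. Members were chosen by their peaks: a merged region was kept when all 3 day 3 lists and both day 9 lists had a peak in it and none of the 2 MEF and 2 ESC lists did. There were 1094 members, 0.610% of all merged regions. Since the acetylation calls at day 3, day 9, MEF and ESC chose the members, those values are given as a description and were not tested. The 10 KLF4 lists took no part in the choice, but where KLF4 goes with acetylation, a choice on acetylation also bears on KLF4 shares. The 3 day 6 H3K27ac lists were not asked for a peak, but their peaks were merged with the others and so helped set the bounds of the regions. With the regions merged without them, an alternative chosen after the data were seen, there were 1100 members, of which 1096 overlapped 1093 of the 1094.

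The series mapped H3K27ac and binding of the transcription factor KLF4 by chromatin immunoprecipitation and sequencing (ChIP-seq) while fibroblasts were reprogrammed. The mouse embryonic fibroblasts (MEF) carried a Rosa26-M2rtTA and a Col1a1-OKSM allele on a C57BL/6 x 129 background, so that doxycycline switches on Pou5f1, Klf4, Sox2 and Myc (OKSM) in them. The labels of the MEF H3K27ac libraries give medium without doxycycline (that of the MEF input names doxycycline medium), and those of the reprogramming groups ESC medium with doxycycline (1 µg/ml) and ascorbic acid (50 µg/ml). Day 3 cells were taken in bulk, while day 6 and day 9 cells had been sorted for the surface antigen SSEA1, so these groups differ in cell selection as well as in time. The embryonic stem cells (ESC) were the V6.5 line on irradiated feeder cells in serum and LIF, and for KLF4 also in 2i, which adds inhibitors of MEK (1 µM) and of GSK3 (3 µM). Each KLF4 group (day 3, day 6, day 9, serum ESC and 2i ESC) had 2 libraries. MEF and ESC H3K27ac came from the batch labelled DG-3458 and day 9 from batch EA-3702, while day 3 and day 6 had libraries in both. The labels do not say whether libraries of a group came from separate cultures, so the spread between them may be partly technical. The lists give no read counts, so depth is unknown; they held 41471 to 50836 peaks at day 3, 43974 and 45506 at day 9, 81231 to 88347 in MEF and ESC and 17493 to 22462 at day 6.

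H3K27ac is written by the acetyltransferases EP300 and CREBBP and marks nucleosomes beside active enhancers and promoters; it is lost when an element falls silent. KLF4 is a zinc-finger factor that binds GC-rich CACCC-type elements, is active in epithelia and in pluripotent cells, and is 1 of the factors of the cassette. During reprogramming, fibroblasts pass through intermediate states before the pluripotency network is established, and elements used only on the way are marked in neither the start nor the end cell. As a check of the group labels, promoters (300 bp windows widened by 1 kb) of 14 listed fibroblast genes had an H3K27ac peak for 14 genes in each MEF list, 12 in each day 3 list, 5 to 8 at day 6, 8 or 9 at day 9 and 7 in each ESC list. Of 12 listed pluripotency genes, 2 had such a peak in each MEF list, 2 or 3 at day 3, 3 or 4 at day 6, 10 or 11 at day 9 and 12 in each ESC list. The pluripotency list separated the ESC lists from the MEF lists. The fibroblast list was complete in MEF, but 7 of its 14 promoters were marked in ESC too, as many as or more than in 2 of the 3 day 6 lists, so it does not set ESC apart from day 6 or day 9.

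Few members lay at promoters. Of the 1094 members, 43 (3.93%) overlapped a RefSeq promoter window (250 bases before to 50 bases after a gene start, build GRCm38.p6), against 7.59% of all merged regions. The share was 2.06% for regions acetylated at day 3 only and 3.43% for those at day 9 only (classes defined further on). It was 10.8% for those gained by day 3 and kept in ESC. For the other regions with a peak in all day 3 and day 9 lists, which had 1 in a MEF or ESC list too, it was 55.1%. A low share was thus not particular to members. The 43 members touched 47 windows of 44 genes, 17 protein-coding and 27 long noncoding RNA (lncRNA) genes. KLF4 peaks were absent in all 10 lists from 20 of the 47 windows (42.6%), 1 for each of 20 genes. They were absent from 61.8% of all 32619 windows. In the other regions with a peak in all day 3 and day 9 lists, they were absent from 17.3% of 10874 windows. KLF4 was thus missing less often than over all windows and more often than in that class, which was not tested. Filip1 had KLF4 peaks in all 6 day lists and 1 ESC list. The windows of 5 genes had a KLF4 peak in all 6 lists of days 3, 6 and 9 and in none of the 4 ESC lists, 5 of 47 windows (10.6%). The share was 0.126% of all windows and 0.230% of those in the other regions with a peak in all day 3 and day 9 lists. This was not tested. Their sequences are shown since a KLF4 peak overlapped the promoter window in every reprogramming list and in no ESC list. Gm36434 lies head to head with Gm36386 in the same member and is not repeated. Each line gives the 250 bases before the start from RefSeq, 5′ to 3′ on the gene's strand. Capitals mark every match, on either strand, to GGGTG (the core of the CACCC element, added after the data were seen), AP-1 TGANTCA or SOX CATTGT, the searched motifs that occur in them.
Rnase1: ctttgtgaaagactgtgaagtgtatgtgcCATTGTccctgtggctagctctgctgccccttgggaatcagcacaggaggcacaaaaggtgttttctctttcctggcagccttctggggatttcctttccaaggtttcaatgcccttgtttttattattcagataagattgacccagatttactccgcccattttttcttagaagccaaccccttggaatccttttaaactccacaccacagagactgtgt
Gm40948: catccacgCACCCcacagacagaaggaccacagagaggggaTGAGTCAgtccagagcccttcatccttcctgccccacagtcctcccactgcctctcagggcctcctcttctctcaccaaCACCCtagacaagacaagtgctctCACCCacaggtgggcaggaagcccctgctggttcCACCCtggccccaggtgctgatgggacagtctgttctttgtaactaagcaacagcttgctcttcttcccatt
Gm36386: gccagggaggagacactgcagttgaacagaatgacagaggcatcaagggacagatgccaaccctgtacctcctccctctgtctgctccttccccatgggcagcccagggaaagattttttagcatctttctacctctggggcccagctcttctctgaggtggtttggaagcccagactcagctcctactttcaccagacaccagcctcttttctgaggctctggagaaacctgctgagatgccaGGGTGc
1700095J12Rik: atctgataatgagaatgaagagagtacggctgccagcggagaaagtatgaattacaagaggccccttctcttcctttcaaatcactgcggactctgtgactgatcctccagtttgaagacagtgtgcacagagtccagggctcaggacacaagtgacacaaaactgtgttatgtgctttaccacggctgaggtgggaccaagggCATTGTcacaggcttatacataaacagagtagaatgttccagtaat
Rnase1, which codes for a secreted pancreatic-type ribonuclease, is read from chr14:51146768-51147017 on the minus strand, and the lncRNA genes Gm40948 from chr13:52083608-52083857, Gm36386 from chr5:111663488-111663737 and 1700095J12Rik from chr4:138138519-138138768, each also on the minus strand. The Gm40948 stretch held 4 GGGTG matches and 1 AP-1 match, Gm36386 held 1 GGGTG match, and Rnase1 and 1700095J12Rik held 1 CATTGT match each and no GGGTG. The lncRNA Gm30893 (chr13:14522345-14522594, plus strand) had KLF4 peaks on its window in 5 of the 6 day lists and in 3 of the 4 ESC lists. It carries the full GGGTGTGG word, and whether this word goes with KLF4 in ESC was not tested. Another window of this gene among the 47 overlaps the first and holds the same word.
Gm30893: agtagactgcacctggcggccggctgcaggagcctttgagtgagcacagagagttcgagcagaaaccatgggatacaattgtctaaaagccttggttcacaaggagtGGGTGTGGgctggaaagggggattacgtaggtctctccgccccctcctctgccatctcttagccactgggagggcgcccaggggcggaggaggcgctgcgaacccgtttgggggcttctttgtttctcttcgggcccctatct
The full words GGGTGTGG or GGGCGTGG, on either strand, occurred in 4 of the 47 windows (8.51%) and in 8.63% of all 32619 windows. The shorter GGGTG, which GGGTGTGG contains, occurred in 61.7% and 57.7%. CATTGT occurred in 11 of 47 (23.4%) against 12.2%, TGANTCA in 7 (14.9%) against 7.85%, the octamer ATGCAAAT in 3 (6.38%) against 1.75%, and the TEAD word GGAATG in 7 (14.9%) against 14.6%. No window held the ETS word CCGGAAGT (3.91% of all), the GRHL word AACCGGTT (0.147%) or the ESRRB word TCAAGGTCA (0.426%). The median GC content was 49.3% in the 47 windows and 53% over all windows, and its part in these shares was not tested. The counts are matches of letters in 47 windows of which some overlap. They describe those windows and were not tested.

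KLF4 peaks were found at most members during reprogramming, far above the share over all merged regions, and in ESC at a share near or below it. The share of members with a KLF4 peak was 85.6% and 74.6% in the 2 day 3 libraries, 55.4% and 69.0% at day 6, 56.8% and 56.9% at day 9, 7.40% and 14.6% in serum ESC, and 3.29% and 3.84% in 2i ESC. Over all merged regions the shares were 9.80% to 14.2% in the day libraries, 8.04% and 12.5% in serum ESC and 9.67% and 10.9% in 2i ESC. In serum ESC the members' shares thus lay to either side of those of all regions and in 2i ESC below them, which was not tested. Among members, every library of days 3 to 9 stood above every ESC library. The mean was 66.4% ± 12.2 (SD, n = 6 libraries) during reprogramming and 7.29% ± 5.22 (SD, n = 4 libraries) in ESC, a difference of 59.1 percentage points (exact two-sided permutation of the library labels, 210 labelings; p = 0.00476, the smallest they can give, and Benjamini-Hochberg adjusted p = 0.00714 over 6 tests). Within batch EA-3702, the only batch with both kinds of library, the 4 day libraries lay between 55.4% and 85.6% and the 2i library at 3.29%. Keeping to that batch by permuting within batches left 5 labelings, too few to reach 0.05 (difference 60.4 points, exact permutation p = 0.200, the smallest possible). Among the day libraries the share changed by -3.88 points per day, which did not pass the test (exact permutation of the days, 90 labelings; p = 0.0667 before and after adjustment). When all lists were cut to equal length by score the slope was -1.86 points per day and passed (exact permutation p = 0.0222), but over a mostly different set: of its 796 regions only 192 overlapped a member.

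**Figure D1:**
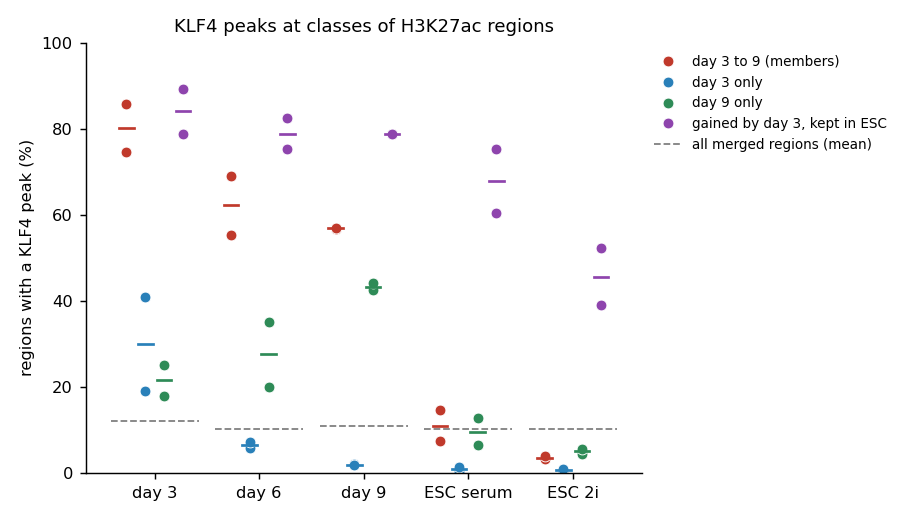
Share of regions with a KLF4 peak (%, vertical axis) in each library (points; bars are the mean of the 2 libraries) by group (horizontal axis), for members and 3 other classes of H3K27ac regions; dashed lines give the mean over all merged regions. Members lie between 55.4% and 85.6% at days 3 to 9 and between 3.29% and 14.6% in ESC.

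The lists differ in length, so the share was also taken the other way round. Members held 2.56% to 3.36% of all peaks of a day 3, day 6 or day 9 KLF4 list and 0.135% to 0.485% of an ESC list. Within the day 3 lists the median rank of a member's best KLF4 peak was at percentile 82.7 and 78.0 (100 is the highest score), above the 60.0 and 61.6 of all merged regions and below the 87.0 and 86.1 of gained and kept regions, and 34.8% and 26.7% of the bound members had a peak at or above percentile 90. The median authors' fold enrichment of these peaks was 7.53 and 4.22, beside 4.33 and 3.19 over the whole lists. In the day 6 and day 9 lists the members' medians were at percentile 54.6, 71.5, 61.9 and 61.0, beside 58.2, 58.7, 58.6 and 58.1 for all merged regions. In these lists 11.2%, 20.5%, 13.8% and 13.5% of the bound members had a peak at or above percentile 90. The few members bound in ESC had medians at percentile 38.5 and 54.2 in serum and 43.0 and 48.9 in 2i, each below the 59.9, 60.3, 60.8 and 61.9 of all merged regions. These ranks were not tested.

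The change of KLF4 from the reprogramming days to ESC was set against that at 3 related classes. Day 3 only regions (969) had a peak in all day 3 lists and in no day 9, MEF or ESC list, day 9 only regions (4959) in both day 9 lists and no day 3, MEF or ESC list, and gained and kept regions (981) in all day 3, day 9 and ESC lists and no MEF list. Members exceeded day 3 only regions by 53.6 points in the day libraries and by 6.57 points in ESC, which leaves 47.0 points (exact permutation test, p = 0.00476, adjusted p = 0.00714). The members' share minus that of gained and kept regions was -14.2 points in the day libraries and -49.4 points in ESC, a difference of 35.3 points (exact permutation test, p = 0.00476, adjusted p = 0.00714). Gained and kept regions were chosen for acetylation in ESC and members for its lack. Where KLF4 in ESC goes with acetylation, these rules alone favour a difference in this direction, and their part was not tested. Day 9 only regions were bound at 30.8% ± 11.4 on the days (SD, n = 6) and 7.31% ± 3.77 in ESC (SD, n = 4), so that members differed from them by 35.6 points (exact permutation test, p = 0.00952, adjusted p = 0.0114). The excess of members over day 9 only regions was 60.5 and 56.6 points at day 3, 35.3 and 33.9 at day 6 and 14.3 and 12.7 at day 9, when both classes are acetylated. All other merged regions had 10.7% ± 1.60 and 10.3% ± 1.90, and the difference there was 58.7 points (exact permutation test, p = 0.00476, adjusted p = 0.00714). In percentage points, the members' share thus fell between days and ESC by more than in each of these classes. Day 3 only regions went from 12.8% to 0.722%. Like all other regions, they started too low for a fall as large in points. Members (median 1930 bp) are wider than day 3 only regions (817 bp), day 9 only regions (772 bp) and all merged regions (542 bp). This gives more room for a peak. Gained and kept regions are wider than members (2849 bp). In a fixed window of 500 bp about each region's centre the differences were 38.1 points against day 3 only, 25.0 against day 9 only and 21.9 against gained and kept (exact permutation p = 0.00476, 0.00952 and 0.00476). Against all other regions the difference in this window was 43.1 points (exact permutation p = 0.00476). In that window the members' KLF4 shares at day 3, 69.1% and 51.6%, lay above the 65.1% and 50.5% of gained and kept regions, while over whole regions they lay below. With serum or 2i ESC alone the difference from day 9 only regions was 34.2 and 37.0 points and no longer passed (exact permutation p = 0.0714 each). Permuted within batches, where no p can pass, the difference from gained and kept regions was 18.8 points and from day 9 only regions 31.8 points. With only peaks of a q-value of at most 0.01, the difference from gained and kept regions was 22.6 points (exact permutation p = 0.00476).

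Region by region, 414 members (37.8%) had a KLF4 peak in all 6 day lists, against 4.72% of all merged regions, and 101 (9.23%) in none, against 79.9%. A peak in all 6 day lists together with none in the 4 ESC lists was found at 291 members (26.6%), against 0.702% of all merged regions. It occurred at 3 of 969 day 3 only regions, 188 of 4959 day 9 only regions and 41 of 981 gained and kept regions. Binding on the days was not particular to members among regions acetylated at both times: of the 13916 other regions with a peak in all day 3 and day 9 lists, which unlike members had 1 in a MEF or ESC list as well, 37.6% had KLF4 in all 6 day lists and 12.4% in none. Their mean share was 63.1% ± 9.16 on the days (SD, n = 6) and 54.6% ± 6.78 in ESC (SD, n = 4), so the values lay close to those of members on the days and far above them in ESC; this difference was not tested. In ESC, 907 members (82.9%) had no KLF4 peak in any list, close to the 82.7% of all merged regions, and 12 (1.10%) had one in all 4, against 4.68%. All merged regions are narrower than members (median 542 bp against 1930 bp), so these shares are not matched for width. In the other regions with a peak in all day 3 and day 9 lists, the 2 shares were 25.8% and 33.5%. The median distance between the midpoint of a member and that of its best KLF4 peak was 220 to 256 bp in the 6 day libraries, and 75.9% to 79.1% of these peaks lay within 500 bp. The few members bound in ESC gave like values, 240 to 268 bp and 76.2% to 83.1% in the 4 ESC libraries. In the 173 members (15.8%) at most 1 kb wide, a peak whose midpoint falls inside the member lies within 500 bp by construction.

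**Figure D2:**
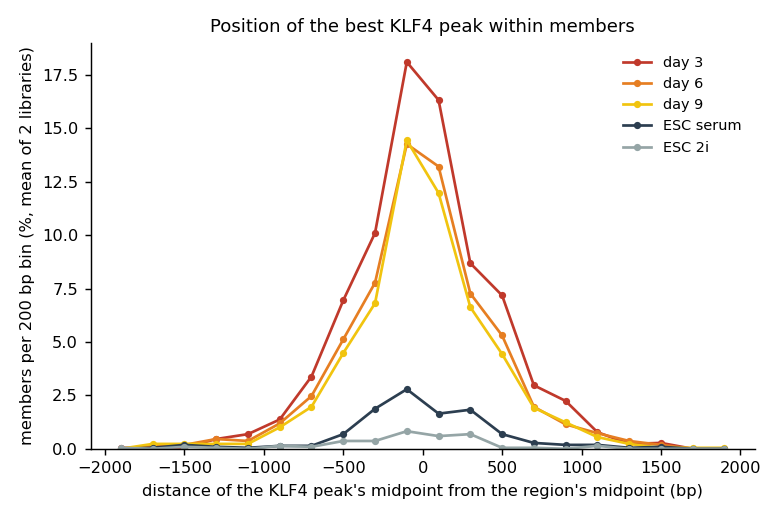
Members (%, vertical axis, mean of 2 libraries per group) whose best KLF4 peak has its midpoint in each 200 bp bin of distance from the member's midpoint (horizontal axis, bp). The curves of days 3, 6 and 9 peak about the centre and those of serum and 2i ESC stay low throughout.

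Acetylation at day 6, between the times that chose the members, was found at only some of them and varied between libraries. A day 6 peak was present at 31.1% and 22.8% of members in the 2 libraries of batch DG-3458 and at 63.5% in the library of batch EA-3702, a mean of 39.1% ± 21.5 (SD, n = 3). All 3 lists had a peak at 170 members (15.5%, against 5.61% of all merged regions), and none had at 350 members (32.0%, against 89.0%). The peak names inside the 2 DG-3458 files carry each other's replicate number, so which of that pair is 1 and which is 2 is uncertain. For those 350 members the lists do not show acetylation that lasts from day 3 to day 9. The day 6 lists are the shortest of the H3K27ac lists and day 6 cells were sorted while day 3 cells were not; the part of either in these shares was not tested. Members with a day 6 peak had a median rank at percentile 28.6 to 41.5 within those lists. In every day 6 library the members' share lay above that of day 3 only regions (0.722% to 4.54%) and day 9 only regions (1.65% to 7.97%) and below that of gained and kept regions (48.7% to 80.7%). When all lists were cut to equal length, which changes the members as well, the mean day 6 share was 76.0%. With the regions merged without the day 6 lists the shares were 30.8%, 22.6% and 63.8%. In the fixed 500 bp window the members' shares were 20.8%, 14.7% and 56.0%.

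**Figure D3:**
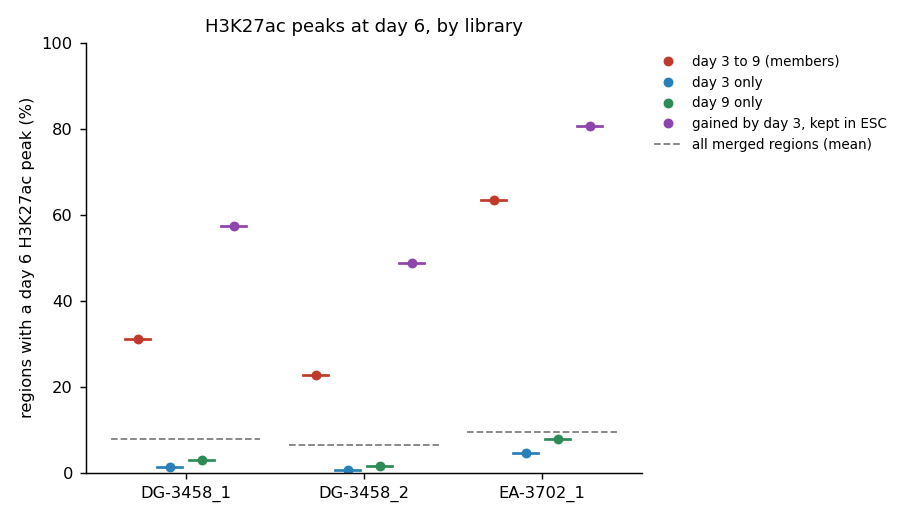
Share of regions with an H3K27ac peak at day 6 (%, vertical axis) in each of the 3 day 6 libraries (horizontal axis), for members, the 3 other classes and all merged regions (dashed). Members lie at 31.1%, 22.8% and 63.5%, below the gained and kept regions and above the other classes in each library.

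Members with a KLF4 peak in all 6 day lists more often had a day 6 peak than members with fewer. Of the 414 members bound in all 6 day lists, 49.8%, 36.0% and 81.2% had a day 6 peak in DG-3458_1, DG-3458_2 and EA-3702_1, while of the 101 members bound in none 15.8%, 8.91% and 37.6% did. In between, the share was higher at each further list in EA-3702_1, while it did not rise throughout in the DG-3458 libraries. In DG-3458_1 it was 11.1% with 1 list, 20.4% with 2, 18.8% with 4 and 28.4% with 5, and in DG-3458_2 it was 14.8% with 2 lists and 12.4% with 3. Width and height moved with this: the median width was 2334 bp with 6 KLF4 lists and 1351 bp with 0, and the median of the members' mean rank over the day 3 and day 9 lists was at percentile 66.2 and 42.1. Among the widest members, when these were split into 3 equal parts by width, the day 6 shares were 67.0%, 50.2% and 92.6% with 6 lists (215 members) and 36.7%, 30.7% and 77.3% with fewer (150 members). Among the narrowest they were 16.4%, 11.9% and 50.7% (67 members) and 8.70%, 5.02% and 34.8% (299 members). Members are not replicates, so this relation is a description and carries no test.

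**Figure D4:**
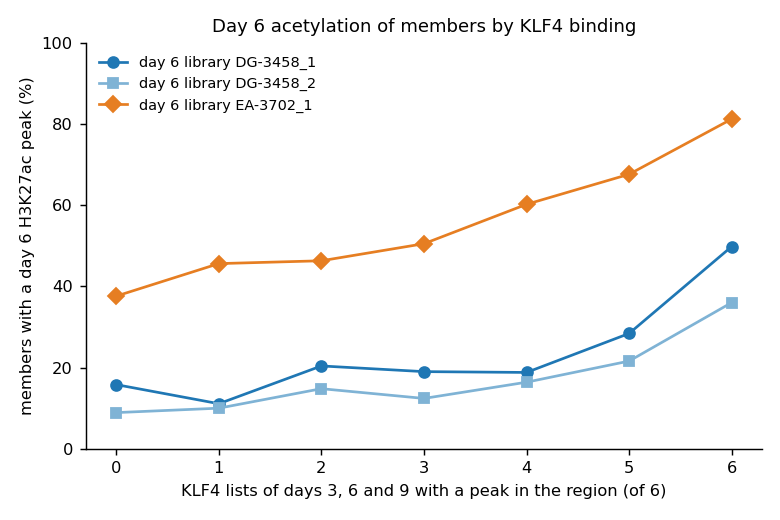
Share of members with a day 6 H3K27ac peak (%, vertical axis) in each day 6 library (lines) by the number of KLF4 lists of days 3, 6 and 9 that have a peak in the member (horizontal axis, 0 to 6). In EA-3702_1 it goes from 37.6% to 81.2%, in DG-3458_1 from 15.8% to 49.8% and in DG-3458_2 from 8.91% to 36.0%.

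The 8 members with the best mean rank over the day 3 and day 9 lists had KLF4 peaks in all 6 day lists and day 6 acetylation in all 3 lists. The values of these peaks are the authors' fold enrichments and serve to describe each list, not to compare lists. The member ranked first, chr5:76324661-76328969, lies in Pdcl2, which codes for a phosducin-like protein. Its H3K27ac folds were 19.4, 13.1 and 15.7 at day 3, 4.05, 4.58 and 7.18 at day 6 and 26.5 and 25.1 at day 9, and no ESC list had a KLF4 peak in it. A pair of adjoining members, chr12:54401477-54406559 and chr12:54406580-54412350, lies 198 and 203 kb from Egln3, a prolyl hydroxylase that acts on hypoxia-inducible factors. The first of the pair had H3K27ac folds of 21.2, 19.4 and 20.5 at day 3, 8.02, 6.21 and 7.36 at day 6 and 22.1 and 16.5 at day 9. Its KLF4 folds were 17.2 and 7.71 at day 3, 9.69 and 8.48 at day 6 and 15.8 and 15.5 at day 9, with no peak in ESC. The others were chr15:12305306-12308855 near Golph3 (a Golgi protein), chr16:90901654-90904760 in Eva1c, chr16:77399153-77401928 at 282 kb from Usp25 (a deubiquitinase), chr14:121613597-121616713 in Dock9 (an exchange factor for the GTPase CDC42) and chr5:34943417-34946358 near Rgs12 (a regulator of G-protein signalling). Of the 8, 4 were free of KLF4 peaks in all ESC lists. The Eva1c member kept KLF4 in 3 of the 4, with folds of 4.09 and 5.14 in serum and 2.86 in 2i, beside 8.53 to 19.3 on the days.

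The 8 members with the best KLF4 rank among those bound on all days and never in ESC overlapped that set in 1 region, the first of the Egln3 pair. Ranked first was chr9:105891718-105893117 in Col6a5, a collagen VI chain gene. Its KLF4 folds were 15.7 and 7.92 at day 3, 23.4 and 16.6 at day 6 and 18.2 and 22.5 at day 9. Its H3K27ac folds were 4.35, 4.99 and 5.20 at day 3, 2.44, 4.58 and 5.86 at day 6 and 12.2 and 10.9 at day 9. The second, chr9:61839182-61841950, lies 71.3 kb from Rplp1 (a ribosomal stalk protein) and had KLF4 folds of 29.8 and 16.8, 19.1 and 13.7, and 15.0 and 16.2 at days 3, 6 and 9. The rest lay within genes: Tubgcp3 (γ-tubulin ring complex), Taf1b (RNA polymerase I initiation), Fbln1 (an extracellular matrix protein), Rere (a corepressor) and Plekhs1. The acetylation of this set ranked lower than that of the first 8 outside the shared region: the mean rank over day 3 and day 9 lists was at percentile 74.1 to 84.5, against 96.5 at the shared Egln3 region, an order that the first choice fixes.

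**Figure D5:**
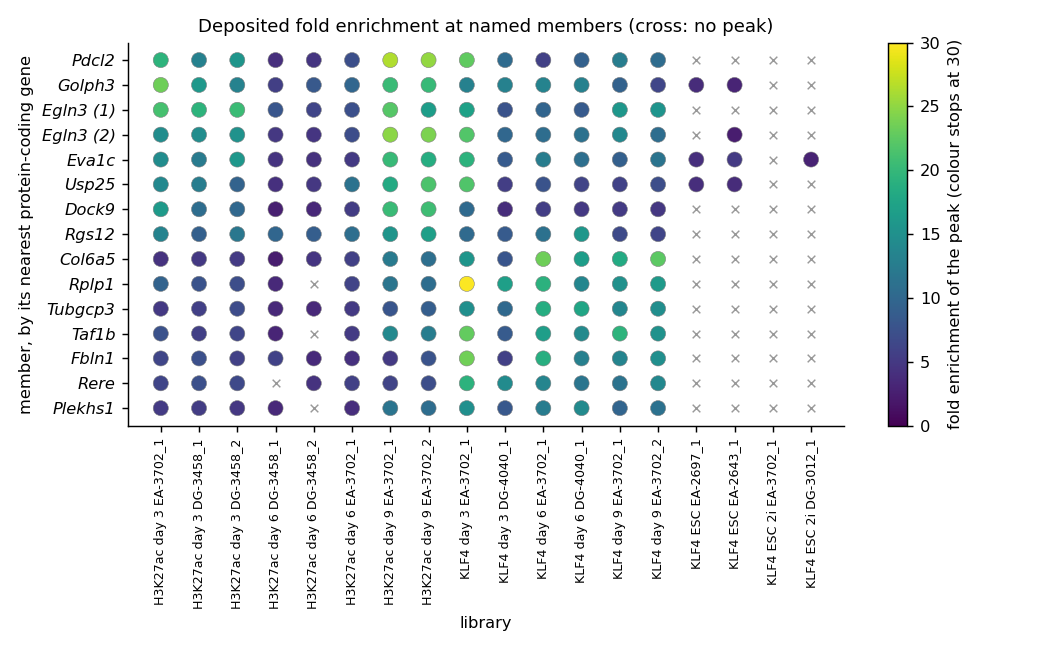
Authors' fold enrichment (colour) of the best peak in each library (horizontal axis) at the 15 members named by acetylation rank or by KLF4 rank (vertical axis, by nearest protein-coding gene); a cross marks no peak. All 15 have KLF4 peaks in the 6 day libraries, and 4 of them, near Golph3, Egln3 (second region), Eva1c and Usp25, have any in ESC.

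Members lay on every chromosome analysed, and 275 of them (25.1%) had another member within 50 kb. That share was 42.9% for day 3 only, 44.7% for the more numerous day 9 only and 22.8% for gained and kept regions. Each chromosome held between 21 (X) and 77 (11) of them, 712 (65.1%) overlapped a protein-coding gene, and the 382 others lay a median of 34.2 kb from one. Of all merged regions 56.2% overlapped a gene, and the rest lay a median of 32.1 kb away. Of the other regions with a peak in all day 3 and day 9 lists, 85.0% did, and the rest lay a median of 19.3 kb away. The gene table gives gene bounds but no exons, so exonic and intronic members were not told apart. Either bound of a protein-coding gene, its start or its finish, was counted as a gene end. A gene end lay within 2.5 kb of 105 members (9.60%), against 16.1% of all merged regions, 7.22% of day 3 only, 11.4% of day 9 only and 18.3% of gained and kept regions. The share was 63.6% for the other regions with a peak in all day 3 and day 9 lists. The median distance to the nearest MEF or ESC peak was 5.57 kb, and 12.8% of members had one within 1 kb. These values were 4.25 kb and 22.0% for day 3 only regions, and 6.26 kb and 15.3% for day 9 only regions. Among the 888 protein-coding genes that were nearest to a member, 741 were so for 1 member, 108 for 2, 25 for 3 and 14 for 4 to 6. Plcl1, which codes for a phospholipase C-like protein without catalytic activity, had 6 members over 433 kb (chr1:55436076-55869548), of which 5 had KLF4 in all 6 day lists. Cobl, an actin nucleator gene, had 5 within 41.2 kb (chr11:12381635-12422818). These 5 were unlike: 2 had KLF4 in all 6 day lists, the others (chr11:12414808-12418746, chr11:12419741-12421581 and chr11:12421665-12422818) had none in any of the 10 lists, and all 5 had a day 6 peak in at least 1 list. Bcas3 also had 5, 2 of them with KLF4 in all day lists and none with KLF4 in ESC. Drosha, the nuclear microRNA-processing nuclease gene, had 5 members of which none was bound in all 6 day lists, and Zfhx3, a homeodomain factor gene, had 5 with 3 bound in at least 1 ESC list. Egln3, which had the best mean rank of the 9 genes with 4 members, had them over 112 kb. The microRNA hairpins Mir721 and Mir8103 each lay in a member.

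Of the 21631 protein-coding genes, 951 (4.40%) had a member within 20 kb. The gene lists, chosen with earlier results known, held few of them. Cdh1, the E-cadherin gene, was the only 1 of 26 epithelial junction and simple keratin genes, Ehf (an epithelial ETS factor) the only 1 of 30 stratified epithelium genes, Elf5 (an ETS factor of trophoblast and mammary epithelium) the only 1 of 18 trophoblast genes and Myt1l (a neuronal zinc-finger factor) the only 1 of 20 neural genes. Day 9 only regions, which are more numerous and lay within 20 kb of 17.0% of genes, were near 13, 14, 3 and 6 genes of these lists. No gene had a member within 20 kb among the 26 KLF and SP factors, 20 pluripotency genes, 20 fibroblast genes, 18 interferon and inflammatory genes, 16 primitive endoderm genes, 13 AP-1 and small Maf factors, 13 p53 and senescence genes, 6 SSEA1 fucosyltransferases, 4 cassette genes or 3 genes at the transgene insertion loci. Counts of 0 or 1 in lists of this size are near the 4.40% background and are no result about these lists.

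Ehf and Elf5 are neighbours on chromosome 2, and 4 members lay in or around them. Of these, 2 lie inside Ehf, chr2:103267642-103269951 and chr2:103280440-103284800, 1 lies 52.0 kb outside it (chr2:103208362-103211443), and 1 lies 3.71 kb from Elf5 (chr2:103404713-103408386). The Elf5 member had H3K27ac folds of 7.31, 7.65 and 8.44 at day 3, 2.36, 3.60 and 3.59 at day 6 and 12.4 and 9.86 at day 9. Its KLF4 folds were 4.65 and 5.59 at day 3, 3.48 and 6.23 at day 6 and 4.12 and 3.98 at day 9. The outer Ehf member had H3K27ac folds of 9.75, 8.98 and 8.09 at day 3 but 2.59 and 2.26 at day 9, and KLF4 peaks at day 3 only, with folds of 10.95 and 2.61. This member overlapped the promoter window of the lncRNA gene Gm13869. None of the 4 had a KLF4 peak in any ESC list. The Cdh1 member, chr8:106598804-106600954, lies 2.40 kb from the gene and had KLF4 folds of 9.47 and 7.19 at day 3, 2.94 and 7.66 at day 6, 6.13 and 6.16 at day 9 and 3.03 in 1 serum ESC library. The Myt1l member, chr12:29895065-29897094, lies within the gene and had KLF4 in 5 of the 6 day lists and no day 6 acetylation.

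Other members had a listed gene as their nearest protein-coding one at a greater distance. Of those below, the Jun and Klf13 members overlapped the promoter windows of the lncRNA genes Gm32240 and Gm32633. The member 88.7 kb from Sox2 (chr3:34559487-34561256) had H3K27ac in all 3 day 6 lists and KLF4 folds of 5.38 and 3.99 at day 3 and 3.89 and 4.28 at day 6, with no peak at day 9 or in ESC. The member 156 kb from Jun, an AP-1 subunit gene (chr4:95207937-95211776), had H3K27ac folds of 7.71, 8.98 and 14.6 at day 3 and 12.6 and 14.2 at day 9, a day 6 peak in 1 list and KLF4 on all 6 day lists. Those nearest to Klf7 (91.4 kb), Klf13 (47.8 kb), Klf14 (200 kb) and Klf4 (503 kb), paralogous zinc-finger factors, had KLF4 in 4, 0, 1 and 3 of the 6 day lists and none in ESC. The member nearest to Gata3 (253 kb) was bound in all 6 day lists and no ESC list, and that nearest to Sox11 (161 kb) in all 6 and in 2 ESC lists.

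The rule has a sharp edge, so the regions just outside it are given for description. A further 836 regions had a peak in 4 of the 5 day 3 and day 9 lists and in no MEF or ESC list. They were narrower (median 1114 bp) and had a median fold of 3.49, against 4.37 in members, and KLF4 peaks at 43.3% on the days and 4.99% in ESC on average. Another 330 had a peak in all 5 lists and in 1 of the 4 MEF and ESC lists, with a median width of 2072 bp, a median fold of 4.55, and KLF4 at 62.3% and 17.0%. With the top 50% of each list by score 596 regions met the rule, of which 344 overlapped a member. With lists cut to equal length 796 met it, of which 192 overlapped a member. Members just inside the rule had weak peaks too: the lowest mean rank over the 5 lists was at percentile 13.4, the median was at 58.1 and the highest at 97.1.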

How the data were processed

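The deposited data are 1 peak list per ChIP-seq library: 12 for H3K27ac and 10 for KLF4. The 13 input libraries were not analysed here. Per the submitters' processing notes, the tools were cutadapt 1.8.1, Bowtie2 2.2.5, deepTools 2.3.6 and MACS2 2.1.1 and the build mm10; settings and controls are not given in the sources used here. Each deposited peak has the authors' score, its fold over control (a ratio), and its p-value and q-value as −log10. A list depends on depth and on the immunoprecipitation, so a region with no listed peak may still carry signal.

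Lists were merged and counted per library in Python 3.11.15 (numpy 2.4.6, pandas 2.3.3, scipy 1.17.1), and the code was tested on simulated lists. Shares were compared with exact two-sided permutation tests over libraries, with Benjamini-Hochberg adjustment over 6 tests and a threshold of 0.05. Alternatives were judged on unadjusted p-values. The members, gene lists and tests were chosen with earlier results of these data known. Named were the 8 members of best mean score rank, the 8 of best KLF4 rank among those in all day lists and no ESC list, the 6 genes nearest to most members (ties broken by best mean rank), and up to 4 members per gene list; the Gm and Rnase1 promoters, Gm30893 and the microRNAs were picked after their values were seen. Positions and promoter sequences are from RefSeq tables of GRCm38.p6, the assembly that mm10 represents. With no genome sequence used here, motifs were counted in promoter windows and not in 300 bp about each member's centre as planned.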

Additional observations from a re-analysis of the deposited data

How the results depend on the processing

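The difference in KLF4 binding at members between the reprogramming days and ESC kept its direction under all 29 alternatives (43.9 to 62.8 points) and passed the test in 28. The exception was batch as a replicate block, where 5 labelings cannot reach 0.05: it gave 60.4 points at members (exact permutation p = 0.200), and against the other classes 48.1 (day 3 only, p = 0.200), 31.8 (day 9 only, p = 0.400), 18.8 (gained and kept, p = 0.400) and 58.8 (all other regions, p = 0.200). Against day 9 only regions the difference was 34.2 points with serum ESC alone and 37.0 with 2i alone (exact permutation p = 0.0714 each). The slope over days was -1.86 with equal numbers of top peaks. With the top 50% of each list 596 regions met the rule, of which 344 overlapped a member as reported. With a q-value of at most 0.01 there were 814, of which 680 did. With equal numbers of top peaks there were 796, of which 192 overlapped a member as reported, and 76.0% of them had a day 6 peak on average. Without each library in turn there were 1164 to 1429 members, and day 6 acetylation was 26.9% to 47.3%. Within 1 kb of a gene end (either bound of a gene) lay 6.22% of members, against 10.9% of all merged regions, 3.20% of day 3 only, 6.37% of day 9 only and 12.8% of gained and kept regions. For the other regions with a peak in all day 3 and day 9 lists the share was 60.7%. Requiring whole-region motif windows was not run, since no genome was used here.

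Depth is unknown, so an absent peak in MEF or ESC is not an absent mark, and which regions are members depends on the list lengths. For H3K27ac, day 9 shared no batch with MEF or ESC, so batch and group cannot be told apart there.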
